A study of Homo sapiens with 12 samples.

Results

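The 10 genes described here encode the main heat shock chaperones of the cytosol and of the mitochondrial matrix. The Hsp70 family is represented by HSPA1A (ENST00000375651), HSPA1B (ENST00000375650) and HSPA8 (ENST00000534624), and Hsp110 by HSPH1 (ENST00000320027). The J-domain genes are DNAJB1 (ENST00000254322) and DNAJA1 (ENST00000330899), the Hsp90 genes HSP90AA1 (ENST00000334701) and HSP90AB1 (ENST00000371646), and the chaperonin genes HSPD1 (ENST00000388968) and HSPE1 (ENST00000233893). They were chosen by name, not by a measured value, though with earlier results of these data known, and each was followed through 1 transcript. The 10 transcripts were picked by Ensembl ID among 100283 coding transcripts of the monosome tables and paired with 10 of 93916 coding transcripts, listed under UCSC IDs, of the RNA-seq and disome tables. All 10 were found in both kinds of table, and all 10 passed the filter on low counts in every comparison. The coding length of each but HSP90AA1 matched its protein plus a stop codon, from 103 codons for HSPE1 to 859 for HSPH1. No protein length to check against was given for HSP90AA1. For HSP90AA1 the row followed was the long isoform of 854 residues, and the neighbouring row of 733 codons held 99.8 to 100.5% of its counts. If reads were counted in every isoform that holds them, the codons found only in the long row held almost none. How much each isoform gave was not tested. Levels per codon of HSP90AA1 use the longer length and would be higher over the shorter one.

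All samples were wild-type HEK293T Flp-In, a line derived from human embryonic kidney into which a recombination site for transgenes has been built. The cells received girolline, a compound first isolated from a sponge, at a dose of 1 or 10 µM, or only the solvent DMSO, in every case for 2 h. The title of the series links girolline to eIF5A, a translation factor that helps ribosomes form difficult peptide bonds and release finished chains. Poly(A) RNA-seq gave mRNA levels, monosome libraries gave the fragments covered by single ribosomes, and disome libraries gave longer fragments covered by 2 ribosomes that abut. In each of the 3 kinds, 2 libraries came from DMSO, 1 from 1 µM and 1 from 10 µM, which makes 12. The labels name 1 cell line and do not state that the DMSO libraries are separate cultures, so the p-values rest on a spread between samples that may be technical. The label of the cell line was not checked against marker genes, because the tables hold transcript IDs without gene names.

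Hsp70 proteins bind exposed hydrophobic stretches of other proteins and release them in a cycle driven by ATP. J-domain proteins bring them their substrates and start ATP hydrolysis, and Hsp110 exchanges the nucleotide. Hsp90 takes over nearly folded clients such as kinases and steroid receptors, and HSPD1 with its lid HSPE1 encloses proteins imported into mitochondria. Many of these proteins bind nascent chains or freshly made proteins, so their own synthesis is often examined when translation is disturbed. HSF1 is the transcription factor that induces HSPA1A, HSPA1B, DNAJB1, HSPH1 and HSP90AA1 when unfolded proteins build up, whereas HSPA8 and HSP90AB1 are made in abundance without stress.

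HSF1 binds repeats of the 5-base unit NGAAN in alternating direction, and the promoters are shown because no member passed the test for mRNA level. Promoter sequences of all 10 members, from 250 bases before to 50 bases after each start site, were matched by symbol in RefSeq (GRCh38.p14). An 8-letter motif of inverted units, GAANNTTC, which reads the same on both strands, was present in 2377 of 35116 such windows, or 6.77%, and in 9 of the 16 windows of the members, which belonged to 8 of the 10 genes. HSPH1 and HSPE1 had no match in these windows. A longer motif of 13 letters, GAANNTTCNNGAA, searched on both strands and containing the shorter one, was present in 172 windows, or 0.49%, and in 5 of the 16, 1 each of HSPA8, HSP90AA1, HSP90AB1, DNAJA1 and HSPD1. The 120 bases before the start sites of HSPA1A (chr6:31815423-31815542, plus strand), HSPA1B (chr6:31827618-31827737, plus strand) and DNAJB1 (chr19:14518398-14518517, minus strand, the second of its 3 listed promoters) follow, 5′ to 3′ and with GAANNTTC in capitals. HSPA8 (chr11:123062137-123062256, minus strand) was added after the values were seen, because its footprints followed those of HSPA1A.
HSPA1A: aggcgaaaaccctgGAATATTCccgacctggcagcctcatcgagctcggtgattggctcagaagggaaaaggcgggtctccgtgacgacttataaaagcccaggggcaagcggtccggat
HSPA1B: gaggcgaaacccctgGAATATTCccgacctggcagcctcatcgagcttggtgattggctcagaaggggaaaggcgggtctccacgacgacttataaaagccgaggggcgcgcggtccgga
DNAJB1: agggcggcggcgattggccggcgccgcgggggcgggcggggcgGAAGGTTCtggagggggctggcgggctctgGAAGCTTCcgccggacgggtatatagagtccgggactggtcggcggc
HSPA8: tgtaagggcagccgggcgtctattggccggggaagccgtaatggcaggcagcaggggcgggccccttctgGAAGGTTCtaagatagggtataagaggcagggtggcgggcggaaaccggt

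The promoters of HSPA1A and HSPA1B were the same at 93.3% of 119 aligned bases. HSPA1A lies at chr6:31815543-31817942 and HSPA1B at chr6:31827738-31830254 on the same strand, with 9795 bases between them, and their proteins are nearly the same. HSPD1 (chr2:197486584-197500274, minus strand) and HSPE1 (chr2:197500379-197503449, plus strand) start 105 bases apart and point away from each other. A match to a motif describes these letters and is not evidence that a factor was bound there.

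Library totals were 28424272 to 42194871 counts for RNA-seq, 21570489 to 38074691 for monosomes and 3091715 to 5769026 for disomes. Levels are given in CPM, counts scaled to a library of 1000000, after TMM scaling, a correction of library size, so every change is relative to the other transcripts of that library. A change of all messages alike would not be seen, and in these bulk lysates a change in some cells and a smaller one in all cells cannot be told apart. A read appears to have been counted in every isoform that holds it, and how reads that match several places were handled was not given in the sources used here. This touches HSPA1A and HSPA1B most, and may touch HSPA8, HSP90AB1, HSPD1 and HSPE1, which have processed copies elsewhere in the genome. The fewest counts behind any member were the 50 of DNAJB1 in a disome DMSO library, at 16.0 CPM with an exact 95% Poisson interval of 11.9 to 21.1 CPM, which covers counting error only. Other genes of the chaperone network had been listed for this description, but they were not analysed here because no table pairs their transcript IDs with names.

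In untreated cells the chaperones differed widely in level per coding length. Per 1000 counted codons, HSPA8 had the highest mRNA level, 1105 ± 21.6 CPM (SD, n = 2 DMSO libraries, as in all such values). HSPA1B and HSPA1A followed at 813 ± 250 and 778 ± 235 CPM per 1000 codons, and HSP90AA1 at 766 ± 4.48. The value of HSP90AA1 is over the codons of its long row and would be higher over the shorter row. The spread of the HSPA1 genes covered the levels of HSP90AA1, HSP90AB1 (697 ± 4.86), HSPD1 (694 ± 17.4) and HSPE1 (635 ± 28.5), so the HSPA1 genes could not be placed among these 4. HSP90AA1 lay above HSP90AB1 and HSP90AB1 above HSPE1 in both libraries, while the values of HSPD1 overlapped those of HSP90AB1. DNAJA1 stood lower at 218 ± 10.3, and DNAJB1 at 74.9 ± 3.59 and HSPH1 at 67.2 ± 2.81 were lowest. As counted, HSPA1A and HSPA1B, which are kept low in many unstressed cells, were thus at the level of the constitutive chaperones here. Reads that match both genes may have been counted in each, so the level of either gene alone could be lower.

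**Figure D1:**
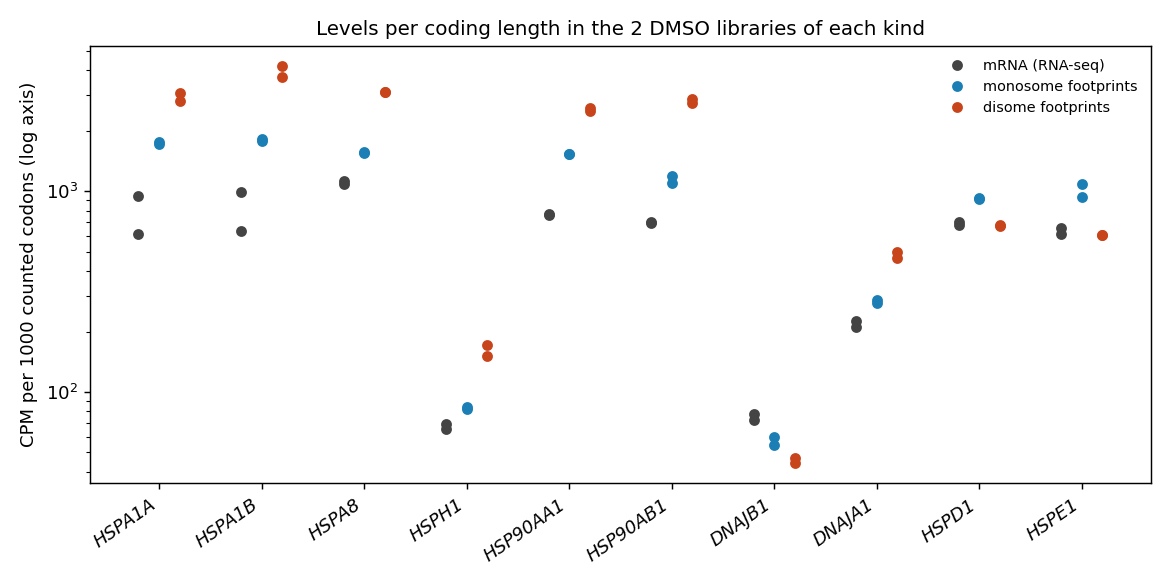
Levels per coding length of the 10 chaperones in the 2 DMSO libraries of each kind, as CPM per 1000 counted codons on a log axis. Each point is 1 library. Disome points lie above mRNA points for the Hsp70, Hsp90, HSPH1 and DNAJA1 transcripts, lie close to them for HSPD1 and HSPE1, and lie below them for DNAJB1.

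Disome footprints of the Hsp70 and Hsp90 transcripts, and less so of HSPH1 and DNAJA1, were high for their mRNA before any girolline was given. The ratio of disome to mRNA level per codon was set against the median ratio of 9723 transcripts of at least 50 codons. These had a mean of at least 10 CPM over all libraries of each kind compared, those with girolline included. DMSO libraries of the same number were divided, here and in later ratios to the median, though the labels do not mark them as pairs. The values of the HSPA1 genes depend on that choice, because their mRNA differed between the DMSO libraries. HSPA1B stood at 4.91 and 6.70 times that median in the 2 DMSO pairs, HSPA1A at 3.77 and 5.28 times and HSP90AB1 at 4.76 and 4.56 times. HSP90AA1 was at 3.95 and 3.75 times and HSPA8 at 3.32 and 3.21 times, which placed these 5 between the 96.7th and the 99.5th percentile. HSPH1, at 2.67 and 2.84 times, and DNAJA1, at 2.72 and 2.36 times, stood between the 91.9th and the 95.1st percentile. HSPD1, at 1.15 and 1.09 times, and HSPE1, at 1.14 and 1.06 times, lay close to the median. DNAJB1 lay below it, at 0.70 times the median in both pairs. Monosome footprints per mRNA spread less, from 0.80 times the median for DNAJB1 to 3.03 times for HSPA1A.

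The RNA-seq comparison asked whether girolline changed the amount of chaperone mRNA within 2 h, the response HSF1 would drive. No member passed the test at 10 µM. HSPA1A had 587 and 381 CPM in DMSO libraries, 373 after 1 µM and 515 after 10 µM. The 10 µM library thus lay between the DMSO libraries, and the 1 µM library lay just below both. HSPA1B followed the same order, with 616 and 396 CPM in DMSO libraries, 391 after 1 µM and 537 after 10 µM. DNAJB1, which is among the first genes HSF1 induces, had 24.9 and 23.2 CPM in DMSO libraries, 21.5 after 1 µM and 21.5 after 10 µM. Both doses lay slightly below the DMSO libraries for DNAJB1.

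In edgeR's quasi-likelihood test (Benjamini-Hochberg adjusted over 56229 transcripts), 0 of 10 members changed at 10 µM at an FDR of 0.05, against 1.11% of all transcripts tested. Of the 10 members, 0 had an unadjusted p under 0.05 there, where 6050 of 56229 transcripts did. DESeq2 called 0 members, against 2.66% of the transcripts it gave an adjusted p. Log2 fold changes ran from -0.31 for HSPE1 to 0.22 for HSP90AB1, with a median of 0.05, against -0.01 over all transcripts. The 95% interval of HSPA1A was -0.21 to 0.39 and that of DNAJB1 -0.56 to 0.24, so a rise of DNAJB1 mRNA by 1 on the log2 scale lay outside it. HSPH1 had a log2 fold change of 0.16 (interval -0.19 to 0.52) and HSP90AA1 of 0.08 (interval -0.21 to 0.37). HSPA8 stood at 0.03, HSPD1 at -0.09 and DNAJA1 at -0.12.

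At 1 µM all 10 members lay below both DMSO libraries, at -0.37 on the log2 scale for HSPA1A and HSPA1B and at -0.04 to -0.19 for the other 8. None passed the test, and 0% of transcripts did. With edgeR, 557 of 56229 transcripts had an unadjusted p under 0.05, among them 2 members, HSPA1A and HSPA1B, and DESeq2 called 0. Between 10 µM and 1 µM, 0 of 10 passed, against 0.427% of transcripts. HSPA1A and HSPA1B were again the only members with an unadjusted p under 0.05, at log2 fold changes of 0.46 each, and the other 8 ran from -0.12 for HSPE1 to 0.30 for HSPH1.

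The DMSO pair itself differed for the HSPA1 genes. DMSO 2 stood at -0.63 against DMSO 1 on the log2 scale for HSPA1A and at -0.64 for HSPA1B, whereas the other 8 members differed by at most 0.10. Over 16738 mRNAs of at least 10 CPM the median size of this difference was 0.155 and the 95th percentile 0.423. In the fit of all libraries without RNA-seq DMSO 1, HSPA1A (0.41, adjusted p = 0.00339 in edgeR's quasi-likelihood test), HSPA1B (0.41) and HSPE1 (-0.38) passed at 10 µM, where 10.9% of transcripts passed. Without DMSO 2 none did, against 10.7% of transcripts, and HSPA1A stood at -0.20. At 1 µM HSPA1A stood at -0.64 without DMSO 2, where it and HSPA1B passed against 0.525% of transcripts, and at -0.04 without DMSO 1. At 10 µM the direction of the HSPA1 mRNA change therefore depended on which DMSO library it was set against. At 1 µM the change was negative against either DMSO library, and its size depended on that choice.

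**Figure D2:**
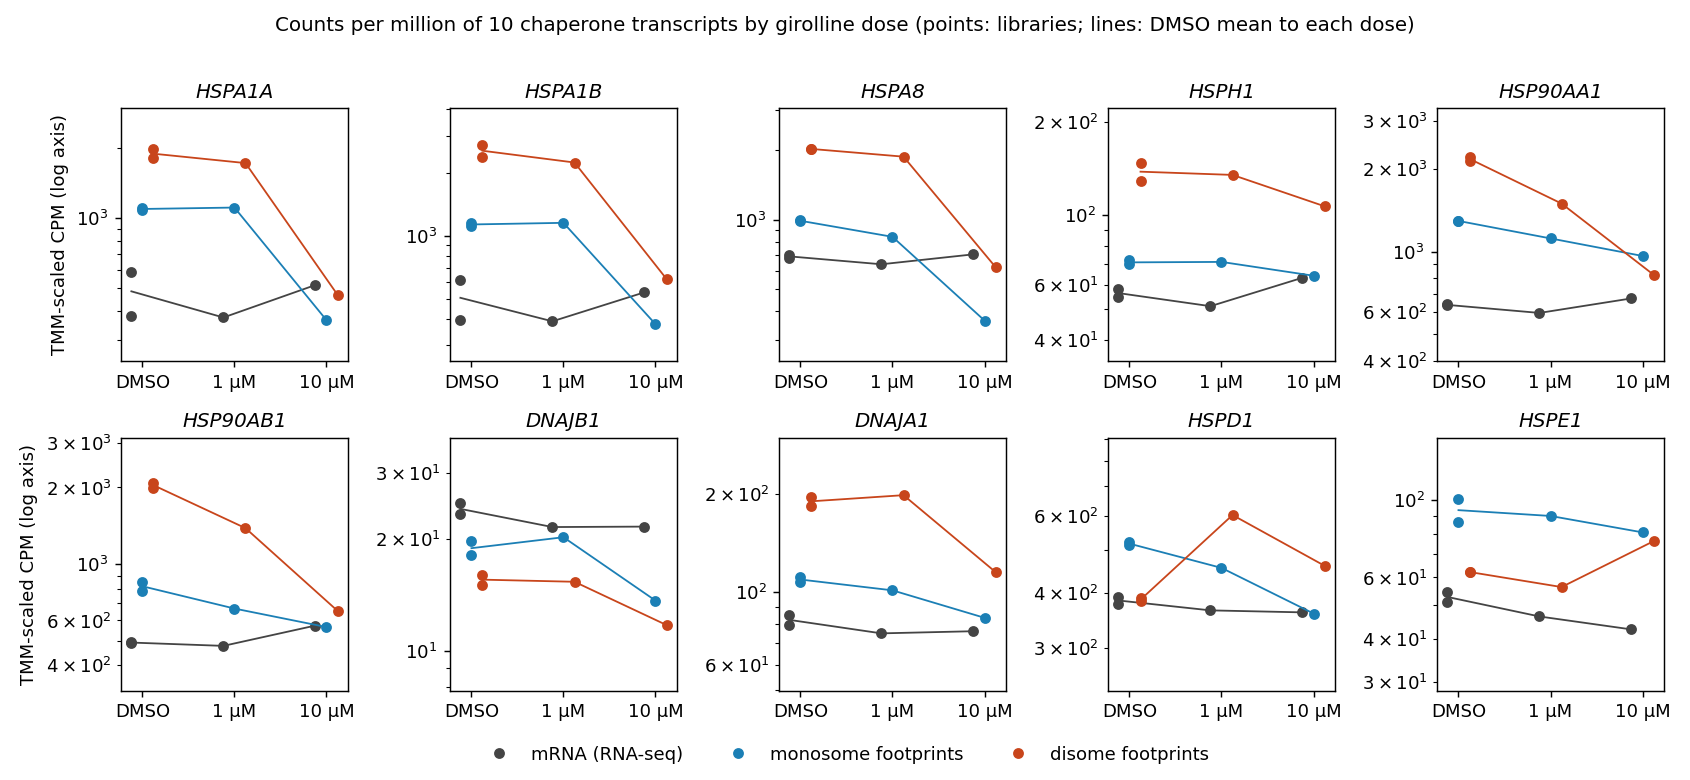
TMM-scaled CPM of each chaperone (log axes, each panel with its own range) with DMSO, 1 µM and 10 µM girolline. Points are libraries and lines join the DMSO mean to each dose. Monosome and disome points of HSPA1A, HSPA1B and HSPA8 drop at 10 µM, where the mRNA points do not. At 1 µM those of HSPA1A and HSPA1B stay near DMSO, while the monosome point of HSPA8 already lies below its DMSO points.

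Monosome footprints asked how many ribosomes occupied the chaperone messages. HSPA1A had 1083 and 1105 CPM in DMSO libraries, 1109 after 1 µM and 364 after 10 µM. HSPA1B had 1118 and 1145 CPM in DMSO libraries, 1152 after 1 µM and 379 after 10 µM. HSPA8, the constitutive Hsp70, had 985 and 992 CPM in DMSO libraries, 843 after 1 µM and 365 after 10 µM. All 3 Hsp70 transcripts thus held about the same number of footprints at 10 µM, and the DMSO libraries of each lay within a few percent of one another.

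At 10 µM, 9 of 10 members fell in monosomes in edgeR's quasi-likelihood test (Benjamini-Hochberg adjusted), and 0 rose, where 15.7% of transcripts fell and 16.5% rose. The 3 Hsp70 transcripts fell most. HSPA1A fell by 1.59 on the log2 scale (SE 0.056, adjusted p = 3.42e-45), or 3.01-fold, and lay lower than all but 0.590% of the transcripts. HSPA1B fell by 1.58 (SE 0.055) and HSPA8 by 1.44 (SE 0.056, adjusted p = 8.86e-42 in edgeR's test), or 2.71-fold. The Hsp90 transcripts changed less: HSP90AA1 had 965 CPM at 10 µM against 1295 and 1296 with DMSO, and fell by 0.43. HSP90AB1 had 565 CPM at 10 µM against 784 and 852 with DMSO, and fell by 0.53. The 95% intervals of the Hsp70 changes spanned -1.70 to -1.33 in all and did not reach those of the Hsp90 changes, which spanned -0.64 to -0.32.

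The J-domain and mitochondrial transcripts moved like the Hsp90 transcripts or less. DNAJB1 had 13.6 CPM at 10 µM against 19.7 and 18.0 with DMSO, and fell by 0.46. DNAJA1, a farnesylated partner of HSPA8, had 83.5 CPM at 10 µM against 111 and 108 with DMSO, and fell by 0.39. HSPD1 had 359 CPM at 10 µM against 521 and 515 with DMSO, and fell by 0.53. HSPE1 fell by 0.21 (adjusted p = 0.0118 in edgeR's test), with 80.9 CPM at 10 µM against 101 and 86.6 with DMSO, so its change was no larger than the gap between the DMSO libraries. HSPH1 stood at -0.14 (adjusted p = 0.104) and was the only member not called, although its 64.1 CPM at 10 µM lay below the 71.7 and 69.7 CPM of DMSO.

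The monosome DMSO libraries were close to each other, and the smaller changes did not pass in every fit. The fits that follow also estimated the spread over all 3 kinds. Their common coefficient of variation was 9.20% with all 12 libraries, against 3.85% for monosomes alone, and the cause of the lost calls was not tested. In the fit of all 12 libraries 8 members fell, all but HSPE1 and HSPH1, against 5.54% of transcripts. In that fit 5 fell without monosome DMSO 1, against 1.82% of transcripts, and 4 without monosome DMSO 2, against 1.52%. The 4 that passed both times were HSPA1A, HSPA1B, HSPA8 and HSPD1.

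At 1 µM the order was different. HSPA8 fell by 0.23 (adjusted p = 0.00405), HSP90AA1 by 0.21 (adjusted p = 0.00791) and HSP90AB1 by 0.29 (adjusted p = 0.000175) in edgeR's quasi-likelihood test, which made 3 of 10 members, against 0.7% of transcripts that fell. HSPA1A stood at 0.02, with a 95% interval of -0.08 to 0.12, and HSPA1B at 0.03. HSPD1 stood at -0.18, DNAJA1 at -0.11, HSPE1 at -0.05, HSPH1 at 0.01 and DNAJB1 at 0.10, and none of the 5 passed. From 1 to 10 µM, 8 of 10 members fell, against 6.29% of transcripts. The step was -1.61 for HSPA1A and HSPA1B and -1.21 for HSPA8, but -0.21 for HSP90AA1 and -0.24 for HSP90AB1. DNAJB1 fell by 0.56, HSPD1 by 0.35 and DNAJA1 by 0.28, while HSPE1 at -0.16 and HSPH1 at -0.15 did not pass. The Hsp90 transcripts thus had about the same drop below 1 µM as above it, while the HSPA1 transcripts had none below 1 µM. With either monosome DMSO library left out of the fit of all libraries, 0 members passed at 1 µM, where 0% of transcripts fell, and 3 fell between the doses, HSPA1A, HSPA1B and HSPA8, against 0.199% of transcripts.

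**Figure D3:**
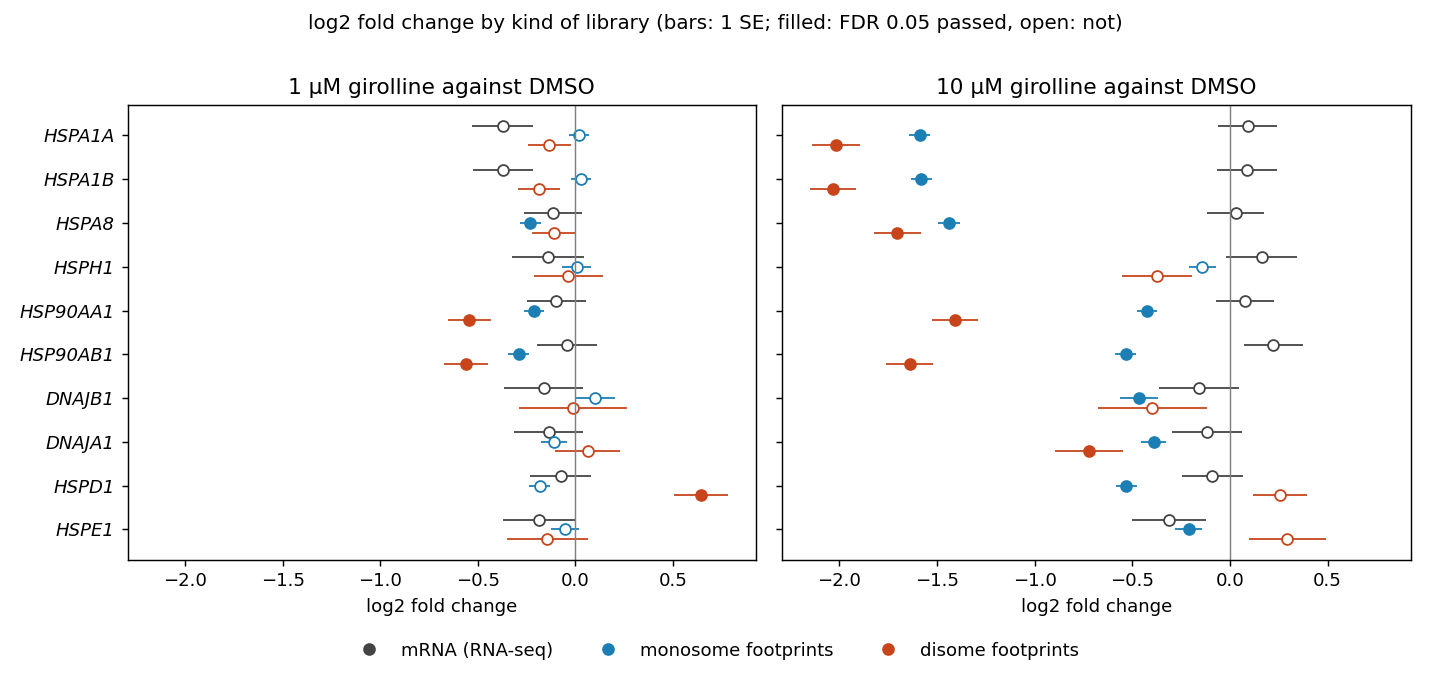
Log2 fold change of each chaperone at 1 µM (left) and 10 µM (right) girolline against DMSO in mRNA, monosome and disome libraries, with bars of 1 SE. Filled points passed an FDR of 0.05 and open points did not. At 10 µM the Hsp70 points lie at -1.44 to -2.03 for both footprint kinds, the Hsp90 points are split between -0.43 and -1.64, and HSPD1 and HSPE1 disomes lie above 0.

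Disome footprints, which form when a ribosome runs up against one that has paused ahead of it, asked where 2 ribosomes stood in contact. The Hsp70 transcripts lost them at 10 µM. HSPA1A had 1976 and 1806 CPM in DMSO libraries, 1723 after 1 µM and 468 after 10 µM. HSPA1B had 2700.3 and 2384 CPM in DMSO libraries, 2234 after 1 µM and 622 after 10 µM. HSPA8 had 2026 and 2027 CPM in DMSO libraries, 1876 after 1 µM and 623 after 10 µM. The 10 µM library lay far below the other 3 for each, and the 1 µM library lay just under both DMSO libraries.

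Of the 10 members 6 fell in disomes at 10 µM and 0 rose in edgeR's quasi-likelihood test (Benjamini-Hochberg adjusted), where 14.9% of 34606 transcripts fell and 20.8% rose. HSPA1B fell by 2.03 on the log2 scale (SE 0.12, adjusted p = 1.77e-64), or 4.09-fold, and HSPA1A by 2.02 (SE 0.12), or 4.04-fold. HSPA8 fell by 1.70 (SE 0.12), or 3.25-fold. HSP90AB1 fell by 1.64 (SE 0.12, adjusted p = 6.59e-40) and HSP90AA1 by 1.41 (SE 0.12), far more than in monosomes. DNAJA1 fell by 0.72 (adjusted p = 0.000224), with 115 CPM at 10 µM against 197 and 184 with DMSO. All 6 passed in each alternative tried except when both doses formed 1 group.

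HSPH1 stood at -0.37 (adjusted p = 0.0916 in edgeR's test) and DNAJB1 at -0.40 (adjusted p = 0.275), and neither was called. HSPH1 had 107 CPM at 10 µM against 129 and 147 with DMSO, and it passed without disome DMSO 1 (-0.49, adjusted p = 0.0172 in edgeR's test) but not without disome DMSO 2 (-0.26, adjusted p = 0.289). The mitochondrial transcripts lay on the other side. HSPD1 had 461 CPM at 10 µM against 389 and 383 with DMSO, a log2 fold change of 0.26, and HSPE1 had 76.3 against 62.4 and 62.1, a change of 0.29. Neither passed at 10 µM, with adjusted p = 0.136 and 0.248.

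At 1 µM the Hsp90 transcripts were the only members that fell in disomes, 2 of 10 against 1.68% of transcripts. HSP90AA1 had 2228 and 2141 CPM in DMSO libraries, 1499.6 after 1 µM and 824 after 10 µM. HSP90AB1 had 2089 and 1994 CPM in DMSO libraries, 1384 after 1 µM and 655 after 10 µM. Their libraries thus dropped at each dose, by 0.54 and 0.56 on the log2 scale at 1 µM and by a further 0.86 and 1.08 from 1 to 10 µM. HSPA1B at -0.19, HSPE1 at -0.14, HSPA1A at -0.13, HSPA8 at -0.11, HSPH1 at -0.04, DNAJB1 at -0.01 and DNAJA1 at 0.06 did not pass at 1 µM. From 1 to 10 µM, 6 members fell, the Hsp70 and Hsp90 transcripts and DNAJA1, against 4.36% of transcripts. HSPH1 at -0.33, DNAJB1 at -0.39 and HSPE1 at 0.44 did not pass between the doses.

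HSPD1 was the only member called higher in disomes at 1 µM, and 5.4% of transcripts rose there. Its disome transcript was paired with its monosome transcript in only 1 of 4 alignments of coding lengths, as described below. HSPD1 had 389 and 383 CPM in DMSO libraries, 602 after 1 µM and 461 after 10 µM. It rose by 0.64 at 1 µM (SE 0.14, adjusted p = 0.000199 in edgeR's quasi-likelihood test), or 1.56-fold, so its highest value was at the lower dose. The difference between 10 and 1 µM, -0.38, did not pass (adjusted p = 0.0992), but it did in 3 of the 9 settings, the one reported included, that gave a p. HSPE1, its lid, had 56.3 CPM at 1 µM, below the 62.4 and 62.1 CPM of DMSO.

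**Figure D4:**
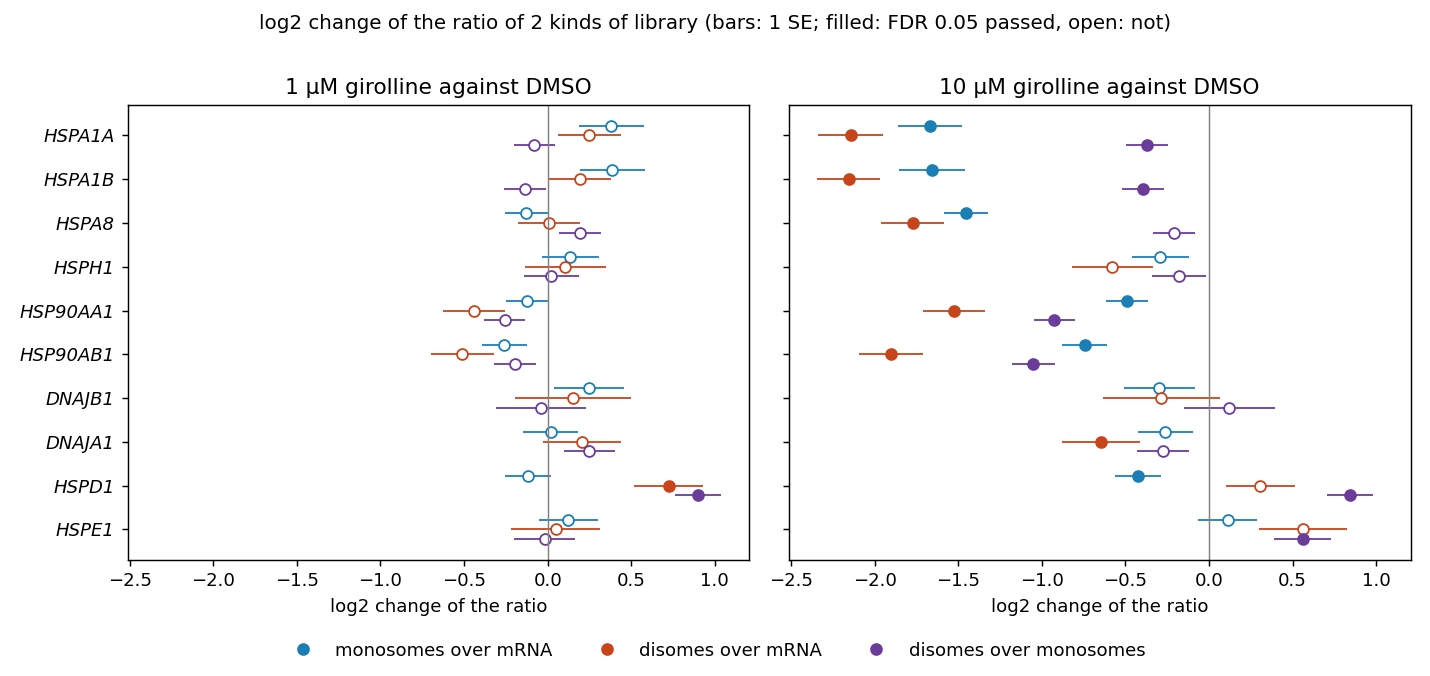
Log2 change of the ratio of 2 kinds of library at 1 µM (left) and 10 µM (right) girolline against DMSO, with bars of 1 SE. Filled points passed an FDR of 0.05 and open points did not. At 10 µM monosomes over mRNA fall most for HSPA1A, HSPA1B and HSPA8, disomes over monosomes fall most for the Hsp90 transcripts, and HSPD1 and HSPE1 lie above 0 for disomes over monosomes.

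Ratios between kinds tested whether footprints changed relative to mRNA, in fits of 8 libraries with 2 residual degrees of freedom. Monosomes over mRNA, a measure of translational efficiency, fell for 6 of 10 members at 10 µM and rose for 0 in edgeR's quasi-likelihood test (Benjamini-Hochberg adjusted), against 3.83% of transcripts that fell and 5.81% that rose. HSPA1A fell by 1.67 (SE 0.19, adjusted p = 1.78e-06), HSPA1B by 1.66 (SE 0.20) and HSPA8 by 1.45 (SE 0.13). HSP90AB1 fell by 0.74, HSP90AA1 by 0.49 and HSPD1 by 0.43 (adjusted p = 0.0478 in edgeR's test), and HSPD1 had adjusted p = 0.0809 in the fit of all 12 libraries. With either monosome DMSO library left out, HSP90AA1 and HSPD1 did not pass and 4 members did, against 1.44 and 1.20% of transcripts that fell. DNAJB1 at -0.30, HSPH1 at -0.29, DNAJA1 at -0.26 and HSPE1 at 0.11 did not pass. Set against the median transcript, HSPA8 stood at 1.49 and 1.47 times in DMSO libraries, 1.36 times after 1 µM and 0.56 times after 10 µM. HSPA1A stood at 1.91 and 3.03 times in DMSO libraries, 3.08 times after 1 µM and 0.77 times after 10 µM, so its messages passed to the lower side of the median.

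At 1 µM 0 of 10 members passed for monosomes over mRNA, against 0.00194% of transcripts, which is 1 of 51467. None had an unadjusted p under 0.05 in edgeR's test, where 2022 transcripts did. DESeq2 also called 0 members, against 3.63% of the transcripts it gave an adjusted p. HSPA1A stood at 0.38, with an interval of -0.01 to 0.78, and this value was 0.65 without RNA-seq DMSO 2, where HSPA1A and HSPA1B passed against 0.387% of transcripts, and 0.05 without DMSO 1. The members ran from -0.26 for HSP90AB1 to 0.39 for HSPA1B.

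Disomes over mRNA fell at 10 µM for 6 of 10 members, against 8.52% of transcripts, and rose for 0, against 11.6%. HSPA1B fell by 2.16 (SE 0.19, adjusted p = 1.24e-27), HSPA1A by 2.14, HSP90AB1 by 1.90, HSPA8 by 1.77, HSP90AA1 by 1.53 and DNAJA1 by 0.65 in edgeR's quasi-likelihood test. HSPH1 at -0.58 (adjusted p = 0.0754), HSPE1 at 0.56 (adjusted p = 0.117), DNAJB1 at -0.28 and HSPD1 at 0.31 did not pass. HSPE1 did pass in the fit of all 12 libraries and in it without any 1 of the disome or RNA-seq DMSO libraries, at 0.56 to 0.67. HSPH1 also passed in that fit, and in it without any of these libraries but disome DMSO 2. At 10 µM the ratios of the Hsp70 and Hsp90 transcripts lay close to the median transcript. HSPA1A was at 1.00 times it, HSPA8 at 0.97 times, HSP90AB1 at 1.26 times, HSPA1B at 1.28 times and HSP90AA1 at 1.36 times. HSPH1 kept 1.88 times the median at 10 µM, against 2.67 and 2.84 times with DMSO. At 1 µM 1 of 10 members rose, HSPD1 by 0.72 (adjusted p = 0.0332), where 1.41% of transcripts rose, and 0 fell, against 0.198%. The other 9 ran from -0.51 for HSP90AB1 and -0.44 for HSP90AA1 to 0.25 for HSPA1A. HSPD1 was not called with DESeq2's size factors in edgeR. Without RNA-seq DMSO 1 there were 2 members called at 1 µM, against 5.17% of transcripts, and without RNA-seq DMSO 2 there were 5, against 4.25%.

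Disomes over monosomes separated the Hsp70, Hsp90 and mitochondrial transcripts. At 10 µM 4 of 10 members fell in edgeR's quasi-likelihood test (Benjamini-Hochberg adjusted), against 5.72% of transcripts, and 2 rose, against 12.8%. HSP90AB1 fell by 1.05 (SE 0.13, adjusted p = 6.79e-11) and HSP90AA1 by 0.93 (SE 0.12, adjusted p = 1.93e-09). HSPA1A fell by 0.37 (adjusted p = 0.028) and HSPA1B by 0.39 (adjusted p = 0.016), while HSPA8 stood at -0.21 and was not called, with an interval of -0.46 to 0.04. DNAJA1 at -0.27, HSPH1 at -0.18 and DNAJB1 at 0.12 were not called. HSPD1 rose by 0.84 (SE 0.14, adjusted p = 4.77e-07) and HSPE1 by 0.56 (SE 0.17, adjusted p = 0.0128). In the fit of all 12 libraries 3 members passed, HSP90AA1, HSP90AB1 and HSPD1, against 12.1% of transcripts. HSPA1A, HSPA1B and HSPE1 did not pass there, with adjusted p of 0.0836 to 0.109 in edgeR's test. Without 1 of the disome or monosome DMSO libraries in that fit, HSPE1 ran from 0.39 to 0.61, HSPA1A from -0.47 to -0.39 and HSPA1B from -0.52 to -0.39.

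Against the median transcript, HSP90AB1 had 2.87 and 2.54 times the disomes per monosome in DMSO libraries, 2.06 times after 1 µM and 1.10 times after 10 µM. HSPD1 had 0.80 times in both DMSO pairs, 1.31 times at 1 µM and 1.21 times at 10 µM. At 1 µM HSPD1 was the only member called, with a rise of 0.90 (SE 0.14, adjusted p = 7.19e-07 in edgeR's quasi-likelihood test), where 3.18% of transcripts rose. It passed in each of the 12 settings that gave it a p, at 0.82 to 0.93. The other 9 ran from -0.26 for HSP90AA1 to 0.25 for DNAJA1.

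HSPA1A and HSPA1B are nearly the same in coding sequence, so reads may have been shared between them, and how much each copy gave cannot be told apart. With their counts summed, 8 of 9 members fell in monosomes at 10 µM, against 15.6% of transcripts. In disomes 5 of 9 then fell, against 14.9%, and for monosomes over mRNA 5 of 9, against 3.83%. As counted, HSPA1B held 1.04 to 1.05 times the counts of HSPA1A in RNA-seq libraries and 1.03 to 1.04 times in monosome libraries. In disome libraries it held 1.37 and 1.32 times in DMSO libraries, 1.30 times after 1 µM and 1.33 times after 10 µM. A transcript of 477 codons that the tables list beside HSPA1A, which no source used here names, held 82.9 and 84.6% of the HSPA1A disome counts in DMSO libraries, 77.5% after 1 µM and 63.4% after 10 µM. In monosomes it held 71.5 and 71.7% in DMSO libraries, 70.9% after 1 µM and 69.6% after 10 µM, and this difference between the kinds was not tested.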

How the data were processed

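The authors deposited, for each of 12 libraries, a table of raw read counts per transcript with a length, without normalization. The submitters' processing notes name hg38, STAR 2.7.0a and CASAVA 1.8, and the counting tool was not given in the sources used here. The length column, another value in the deposited tables, is the coding length in codons less 20 in RNA-seq and 10 in monosome tables, and was taken as the codons counted. RNA-seq and disome transcripts were paired with monosome transcripts by aligning coding lengths in file order (79994 pairs, Pearson's r of log2 counts 0.932 between the first DMSO libraries, across transcripts). HSPA8 and HSPH1 were each paired in 2 of 4 alignments, both times with the same partner. HSPD1 was paired in only 1 of 4, so no other alignment checked its partner. The mRNA, disome and ratio values of HSPD1 rest on that 1 pairing.

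Transcripts with identical counts were merged. edgeR 4.0.16 in R 4.3.3 (TMM, filterByExpr, quasi-likelihood test, FDR 0.05 by Benjamini-Hochberg over all transcripts) fitted 3 groups per kind, with 1 residual degree of freedom, so the spread of the DMSO pair stood in for that of each lone dose library. Ratios were tested as interactions between library kind and dose. The common dispersion gave a coefficient of variation of 11.8% for RNA-seq, 3.85% for monosomes and 10.3% for disomes, and DMSO pairs differed beyond counting noise (chi-square per degree of freedom 6.88, 1.76 and 2.43). DESeq2 1.42.0, other scaling, no filter, 1 transcript per 10 rows, HSPA1A and HSPA1B summed, and both doses as 1 group were alternatives. A replicate block, 1 fit of 12 libraries and DMSO libraries left out were also tried, and scripts were tested on simulated data. With 1 DMSO library left in a kind, that library was assumed to vary like the others. The members and gene lists were chosen with earlier results of these data known, and members are given in each comparison by name or by their range.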

Additional observations from a re-analysis of the deposited data

How the results depend on the processing

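Each lone dose library had no replicate, and the DMSO spread rests on 2 libraries, so small changes depend on how that spread is estimated. Disome depth limits DNAJB1 most. With both doses as 1 group, 0 members passed in monosomes, against 0% of transcripts, and 0 in disomes, against 3.28%. That group holds 2 unlike doses, and the cause of the lost calls was not tested. In 1 fit of all 12 libraries, 0 members passed in monosomes at 1 µM, against 0.0385% of transcripts, and 3 between the doses, against 1.61%. For disomes over monosomes at 10 µM 3 passed in that fit, against 12.1%. DESeq2 called 5 members in monosomes between the doses, against 5.89% of the transcripts it gave an adjusted p. At 1 µM it called 2 for disomes over monosomes, against 6.3%, and 3 for disomes over mRNA, against 4.55%. DESeq2's size factors in edgeR gave 0 for disomes over mRNA at 1 µM, against 1.56% of transcripts. DESeq2 gave DNAJB1 no adjusted p in 4 comparisons.

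The next ranges cover every setting but both doses as 1 group, fits without 1 DMSO library included. In monosomes at 10 µM, log2 fold changes ran from -1.61 to -1.55 for HSPA1A, -1.45 to -1.4 for HSPA8, -0.44 to -0.38 for HSP90AA1 and -0.32 to -0.11 for HSPE1. In disomes at 10 µM they ran from -2.07 to -1.94 for HSPA1A, -1.74 to -1.63 for HSPA8, -1.44 to -1.33 for HSP90AA1 and -0.49 to -0.26 for HSPH1. Disomes over mRNA at 10 µM ran from -2.43 to -1.82 for HSPA1A. The cause of these shifts was not tested.

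The labels do not say that a replicate number marks a shared culture or day, so DMSO libraries of the same number were not taken as pairs in the reported tests. The deviations of same-numbered libraries had correlations across transcripts of -0.101 for monosomes with RNA-seq, 0.256 for disomes with RNA-seq and 0.026 for disomes with monosomes. With the number as a replicate block, 8 members passed for disomes over mRNA at 10 µM, against 23.6% of transcripts. They were the 6 called without it, HSPH1 (-0.57, adjusted p = 0.0191 in edgeR's test) and HSPE1 (0.56, adjusted p = 0.0359). At 1 µM 2 members passed with the block, against 2.96% of transcripts. The block gave 11332 calls in place of 9673 over all transcripts at 10 µM and 1424 in place of 775 at 1 µM, and 3 in place of 1 for monosomes over mRNA at 1 µM. With the block 5 members passed for monosomes over mRNA at 10 µM, against 10.3% of transcripts, without HSPD1 (-0.43, adjusted p = 0.11 in edgeR's test). With crossed numbers, a choice made after seeing the data, the block gave 6 and 0 members for monosomes over mRNA at 10 and 1 µM. The shares of transcripts were 12.5 and 0.0427%.

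Over all transcripts, calls in mRNA at 10 µM ran from 2 to 5634 over the alternatives against 623 as reported, at 1 µM from 0 to 271 against 0, and between the doses from 49 to 3410 against 240. In monosomes they ran from 0 to 18023 against 17828, 0 to 1102 against 957, and 268 to 6890 against 6658. In disomes they ran from 1025 to 12439 against 12368, 456 to 2448 against 2449, and 660 to 4219 against 4174. For monosomes over mRNA at 10 and 1 µM they ran from 1179 to 10242 against 4962 and 0 to 200 against 1. Disomes over mRNA gave 2744 to 13253 against 9673 and 270 to 2670 against 775, and disomes over monosomes 2408 to 8329 against 8331 and 295 to 1738 against 1589.

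Of the values of single members, 1269 kept direction and side of the threshold, 87 lost it, 44 passed it and 45 changed sign, none of which was called as reported. The sign changes were on the log2 scale as follows. With both doses as 1 group, mRNA stood at -0.12 for HSPA1A and HSPA1B, -0.04 for HSPA8, -0.01 for HSP90AA1, 0.02 for HSPH1 and 0.10 for HSP90AB1, monosomes at -0.57 for HSPA1A, -0.56 for HSPA1B, -0.07 for HSPH1 and -0.17 for DNAJB1, and disomes at -0.27 for DNAJA1 and 0.11 for HSPE1. HSPH1 turned for disomes over monosomes at 1 µM in 1 fit of all libraries (-0.03), with 1 transcript per 10 rows (-0.04), with DESeq2 (-0.05) and with its size factors (-0.05), and for monosomes at 1 µM to 0.00 in 1 fit and with both DESeq2 settings. At 1 transcript per 10 rows DNAJB1 stood at 0.01 in disomes at 1 µM and at -0.01 in mRNA between the doses, where 1 fit gave -0.02, and without the filter HSPE1 stood at 0.02 for disomes over monosomes at 1 µM.

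Leaving out 1 DMSO library gave, at 10 µM in mRNA, -0.20 to 0.41 for HSPA1A, -0.21 to 0.41 for HSPA1B and -0.02 to 0.04 for HSPA8, and between the doses -0.02 both times for DNAJB1. The rest are at 1 µM. Monosomes gave 0.00 to 0.03 for HSPA1A, 0.00 to 0.04 for HSPA1B, -0.02 to 0.02 for HSPH1 and -0.17 to 0.05 for HSPE1. Disomes gave -0.13 to 0.10 for HSPH1 and -0.02 to 0.02 for DNAJB1. Monosomes over mRNA gave -0.04 to 0.07 for DNAJA1. Disomes over mRNA gave -0.08 to 0.52 for HSPA1A, -0.14 to 0.47 for HSPA1B, -0.01 to 0.04 for HSPA8 and 0.00 to 0.11 for HSPE1. Disomes over monosomes gave -0.13 to 0.10 for HSPH1 and -0.18 to 0.03 for HSPE1.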
